A study of Rattus norvegicus with 8 samples.

Results

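Tagln3 and Tagln2 are paralogous genes of the transgelin family, and their mRNA was followed in the orbitofrontal cortex of rats infused with an siRNA. They were read as every row of the count table whose gene symbol is Tagln3 or Tagln2, which gave 3 of 34298 rows. The symbol Tagln3 stands on 2 rows, at positions 2.57 Mb apart on chromosome 11, and Tagln2 on 1 row of chromosome 13. Of the 3 rows, 2 passed the filter on low counts and were among the 16573 genes tested. Tagln3 was chosen because of its difference between the siRNA groups, so that difference is given as a description and no test is read from it.

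The animals were outbred Sprague-Dawley rats, adult and male, aged 8 weeks when they arrived. Each received 1 µl with 5 ng of siRNA in JetPEI, a polymer that carries nucleic acids into cells, and the cortex was collected 7 days later. In 4 animals (replicates 1 to 4) the siRNA was aimed at circNrxn3, a circle formed by backsplicing of neurexin 3 RNA, through the junction where the circle closes. In the other 4 (replicates 1, 3, 4 and 5) it was a scrambled control. The libraries hold poly-T selected RNA, so the circle itself, which has no poly-A tail, was not read here, and the knockdown is known only from the labels.

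Transgelins are small actin-binding proteins with a calponin homology domain and a calponin-like repeat, and they share this build with the larger calponins. Tagln (SM22) marks smooth muscle, Tagln2 is made in many cell types including blood and vessel cells, and Tagln3 (NP25) is found mainly in neurons. In tissue sequenced in bulk, fewer cells of a type and less RNA per cell cannot be told apart.

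The infused siRNA is shown because it defines the groups. Capitals in the antisense strand mark bases 2 to 8, the seed through which an siRNA can also pair with other mRNAs.
circNrxn3 siRNA sense strand: uccaaaggcuagacaggaauu
circNrxn3 siRNA antisense strand: uUCCUGUCuagccuuuggauu

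The start regions of both genes are shown because the genes share a domain structure and differed in level. RefSeq lists 2 start regions for Tagln3 and 1 for Tagln2 in the GRCr8 assembly, each with 250 bases before and 50 after the start on the plus strand. They lie at chr11:68562232-68562531 (Tagln3 start 1), chr11:68562598-68562897 (Tagln3 start 2) and chr13:87499158-87499457 (Tagln2). Capitals mark matches to the CCAAT box in Tagln3 start 2 and to the GC box GGGCGG in Tagln2, all of them on the opposite strand and so printed as the reverse complement.
Tagln3 start 1: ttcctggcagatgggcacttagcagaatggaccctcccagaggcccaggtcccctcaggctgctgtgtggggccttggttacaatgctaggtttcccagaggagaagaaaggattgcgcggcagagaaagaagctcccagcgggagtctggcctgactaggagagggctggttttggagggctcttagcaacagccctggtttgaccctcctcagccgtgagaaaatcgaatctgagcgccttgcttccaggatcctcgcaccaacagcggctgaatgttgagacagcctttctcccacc
Tagln3 start 2: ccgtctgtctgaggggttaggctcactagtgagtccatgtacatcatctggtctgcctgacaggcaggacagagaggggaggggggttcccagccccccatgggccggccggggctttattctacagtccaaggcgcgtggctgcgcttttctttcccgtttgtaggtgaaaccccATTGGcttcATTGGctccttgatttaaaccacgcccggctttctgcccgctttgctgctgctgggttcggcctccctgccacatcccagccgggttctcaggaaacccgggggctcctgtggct
Tagln2: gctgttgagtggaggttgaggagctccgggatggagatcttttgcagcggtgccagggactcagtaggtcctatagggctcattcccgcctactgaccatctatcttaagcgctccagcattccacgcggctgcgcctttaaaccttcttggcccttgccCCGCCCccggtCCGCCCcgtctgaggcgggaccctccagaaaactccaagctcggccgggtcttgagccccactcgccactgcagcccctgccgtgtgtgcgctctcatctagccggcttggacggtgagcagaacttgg

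Common promoter motifs were searched on both strands: the CCAAT box by its name's letters, the TATA box as TATAAA, the GC box of Sp factors as GGGCGG, the cAMP response element as TGACGTCA, and the CArG box, the binding motif of serum response factor that is known from smooth muscle promoters. No match of one motif overlapped a match of another. Tagln3 start 2 held CCAAT 2 times, beginning 74 and 65 bases before the start (positions -74 and -65), and Tagln3 start 1 held none of the motifs. Tagln2 held GGGCGG 2 times, at positions -90 and -79. Of the 33469 start regions of this length in the table, 37.5% held the CCAAT box, 33.1% the GC box, 14.2% the TATA box, 1.83% the cAMP response element and 1.64% a CArG box. The C and G content was 57.7% and 60.7% in the Tagln3 regions and 62.3% in the Tagln2 region.

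Total counts were 28219271 to 35221782 in circNrxn3 siRNA libraries and 27589883 to 35191810 in scrambled libraries. Defining neuronal markers were present at a summed level of 8152 to 8902 CPM (read counts scaled to a common library total) in circNrxn3 siRNA and 8106 to 8562 CPM in scrambled libraries. Of the marker lists of other cell types, only the red blood cell list had every gene at a lower fitted level together with unadjusted p-values under 0.05 for most of its genes. Its 6 genes summed to 359 to 759.6 CPM in circNrxn3 siRNA and 608 to 2439.7 CPM in scrambled libraries, and its median log2 fold change was -1.15. Other lists also leaned 1 way. All 7 oligodendrocyte genes were fitted above (median 0.174), 1 of them with an edgeR unadjusted p under 0.05. All 4 oligodendrocyte precursor genes (median -0.0879) and all 5 tested lymphocyte and leukocyte genes (median -0.251) were below, 0 of them with such a p. The endothelial list included Cldn5, which was listed at 0 in all 8 libraries. The part of blood or vessel RNA in the values below was not tested.

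Nearly all reads of Tagln3 fell in the row ENSRNOG00000059539 (chromosome 11, 60072727 to 60086553, plus strand, rn6). This protein-coding gene model spans 13827 bases and has 1400 bases of exon sequence. It had 3883, 5637, 800 and 3457 counts in circNrxn3 siRNA replicates 1, 2, 3 and 4. In scrambled replicates 1, 3, 4 and 5 it had 572, 646, 460 and 522 counts. All 4 circNrxn3 siRNA libraries lay above all 4 scrambled libraries, but replicate 3 was far below its group, at 1.41 times the highest scrambled library after scaling.

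After scaling, this Tagln3 row stood at 107 ± 63.4 CPM in circNrxn3 siRNA and 17.8 ± 2.94 CPM in scrambled libraries (SD, n = 4 each). The per-library values were 105, 184, 28.8 and 109 CPM in circNrxn3 siRNA replicates 1 to 4. In scrambled replicates 1, 3, 4 and 5 they were 20.5, 19.3, 13.7 and 17.7 CPM. The fitted difference was a log2 fold change of 2.58 in edgeR with a standard error (SE) of 0.51. In size it ranked 14 among 14492 genes with a mean of at least 1 CPM, whose median absolute log2 fold change was 0.13. Groups did not overlap in this direction in 1.82% of the genes tested, in the other direction in 1.65% and in either in 3.48%.

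**Figure D1:**
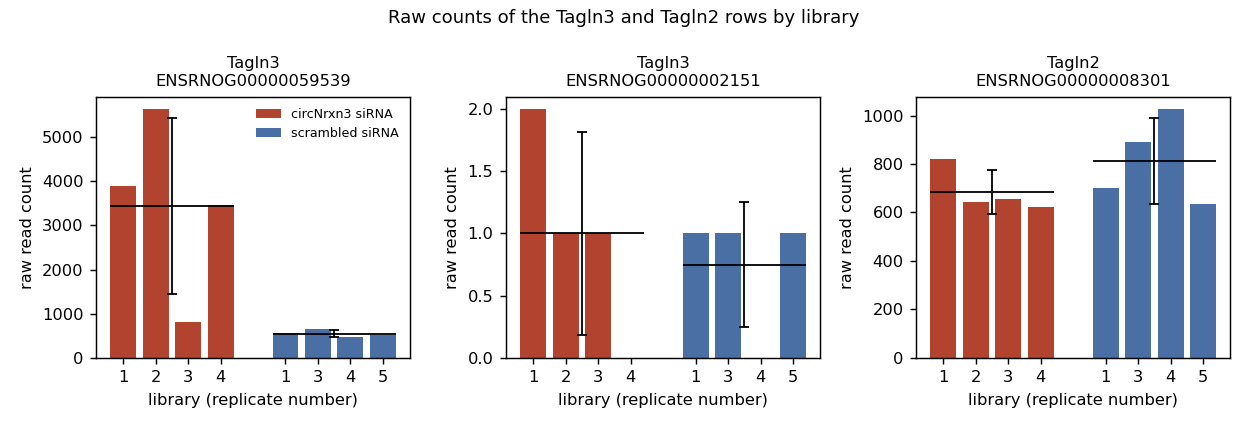
Raw read counts (vertical axes, each with its own scale) of the 2 Tagln3 rows and the Tagln2 row in each library (horizontal axes, replicate number), with circNrxn3 siRNA in red and scrambled siRNA in blue. Lines are group means and error bars are SD (n = 4 each); the first Tagln3 row reaches 5637 counts in circNrxn3 siRNA replicate 2, while the second never exceeds 2 counts.

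After Benjamini-Hochberg adjustment, the quasi-likelihood test of edgeR called 0 of 16573 genes (0.0%), Tagln3 included, and 926 (5.59%) had an unadjusted p under 0.05. DESeq2 called 11 of 15267 genes (0.0721%), and Tagln3 was one of them. Without circNrxn3 siRNA replicate 3, edgeR called 1 of 16888 genes (0.00592%), which was Tagln3, at a log2 fold change of 2.89 (SE 0.22). Without circNrxn3 siRNA replicate 2, edgeR called 1 gene, which was not Tagln3, and the log2 fold change of Tagln3 was 2.19. Since the gene was chosen on this contrast, nothing is read from these calls.

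The spread of Tagln3 was itself unequal between the groups. The SD of its log2 CPM was 1.14 in circNrxn3 siRNA and 0.25 in scrambled libraries. Among the 14492 genes, this SD ranked 300 from the top in circNrxn3 siRNA libraries, where the median gene had 0.19. In scrambled libraries it ranked 5498, where the median gene had 0.20. Tagln3 thus varied about as much as the middle of all genes in scrambled libraries, and more than nearly all of them in circNrxn3 siRNA libraries.

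The balance of long and short mRNAs, a sign of RNA quality, was compared library by library. It sets, on a log2 scale, the longest 25% of tested genes over the shortest 25%. The values are compared between libraries only, and nothing is read from their sign. It was 0.06, 0.26, -0.06 and 0.08 in circNrxn3 siRNA replicates 1 to 4. In scrambled replicates 1, 3, 4 and 5 it was 0.06, -0.11, -0.18 and -0.12. Within each group the libraries fell in the same order by this balance as by Tagln3: from high to low, replicates 2, 4, 1 and 3 of circNrxn3 siRNA and replicates 1, 3, 5 and 4 of scrambled siRNA. Over all 8 libraries, circNrxn3 siRNA replicate 2 was highest and scrambled replicate 4 lowest in both measures. Between the groups the balance leaned the same way as Tagln3. Scrambled replicates 3, 4 and 5 lay below every circNrxn3 siRNA library, and scrambled replicate 1 lay within the circNrxn3 siRNA range. The order was not shared throughout, since circNrxn3 siRNA replicate 1 and scrambled replicate 1 had nearly the same balance. Their Tagln3 levels were 105 CPM in the circNrxn3 siRNA library and 20.5 CPM in the scrambled library. How many other genes follow the same order is not given here, and the part of this balance in the Tagln3 values was not tested.

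The second Tagln3 row, ENSRNOG00000002151 (chromosome 11, 57505005 to 57518933, plus strand, rn6), was almost empty. Its gene model spans 13929 bases and has 1406 bases of exon sequence, 6 more than the first row. It had 2, 1, 1 and 0 counts in circNrxn3 siRNA replicates 1 to 4, against 1, 1, 0 and 1 counts in scrambled replicates 1, 3, 4 and 5. With 4 counts in all circNrxn3 siRNA libraries and 3 in all scrambled libraries, and at most 2 in any library, the row was below the filter and no fold change is given.

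Summing the rows left the picture as it was. The sums were 3885, 5638, 801 and 3457 counts in circNrxn3 siRNA replicates 1 to 4, and 573, 647, 460 and 523 counts in scrambled replicates 1, 3, 4 and 5. The summed log2 fold change was 2.58 (SE 0.51) in edgeR. The near-empty row held 7 of 15984 Tagln3 counts, 0.0438% (95% exact Clopper-Pearson interval 0.0176% to 0.0902%). By group it held 0.029% (0.00791% to 0.0743%) in circNrxn3 siRNA and 0.136% (0.0281% to 0.397%) in scrambled libraries, and these intervals overlap. These intervals cover counting error only. The highest share in any library was 0.125% in circNrxn3 siRNA replicate 3 and 0.191% in scrambled replicate 5. Where the row had 0 counts, the same exact intervals reach 0.107% in circNrxn3 siRNA replicate 4 and 0.799% in scrambled replicate 4, and the limit of 3 counts over the total is 0.0868% in circNrxn3 siRNA replicate 4 and 0.652% in scrambled replicate 4.

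The 2 Tagln3 rows belong to a gene pair that the rn6 table carries 2 times. Immediately before each Tagln3 row, on the same strand, lies a row for Abhd10, a mitochondrial hydrolase that removes acyl groups from proteins. The gap between Abhd10 and Tagln3 is 5987 bases at the row with many Tagln3 reads and 6110 bases at the near-empty one. The starts of the Tagln3 rows are 2567722 bases apart, with 9 rows of the table between them. The RefSeq table of the GRCr8 assembly has 1 entry each for Tagln3 and Abhd10, in the protein-coding order Cd96, Plcxd2, Phldb2, Abhd10, Tagln3, Tmprss7. In rn6 that order is divided: Phldb2 precedes the near-empty pair, and Tmprss7 follows the other. The sources used here do not say how the authors' counting treated reads that match both places. The level of Tagln3 is uncertain to the extent that such reads were dropped or shared out.

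**Figure D2:**
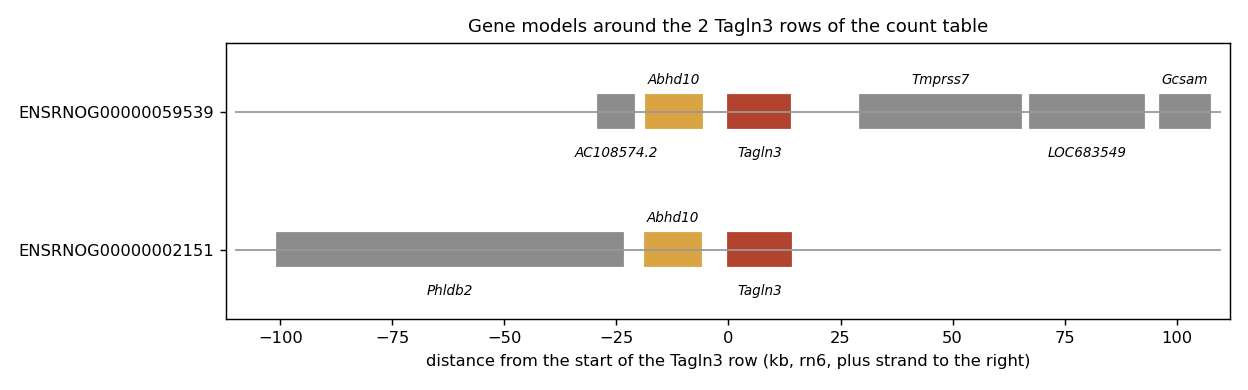
Gene models within 110 kb of the start of each Tagln3 row (horizontal axis, distance in kb, rn6), with Tagln3 in red, Abhd10 in yellow and other genes in grey. The Abhd10 and Tagln3 models repeat with nearly the same spacing in both rows, next to Tmprss7 in the upper map and Phldb2 in the lower one.

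Abhd10 was read in both places as the neighbour that repeats with Tagln3. The row ENSRNOG00000054334 (chromosome 11, 60054408 to 60066739, rn6) had 94, 79, 7 and 144 counts in circNrxn3 siRNA replicates 1 to 4, and 11, 53, 91 and 16 counts in scrambled replicates 1, 3, 4 and 5. The row ENSRNOG00000043107 (57486365 to 57498894) had 3, 0, 0 and 6 counts in circNrxn3 siRNA replicates 1 to 4, and 0, 1, 38 and 0 counts in scrambled replicates 1, 3, 4 and 5. Both groups held libraries with few and with many Abhd10 reads, and most reads of the second row came from scrambled replicate 4.

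Summed over its rows, Abhd10 stood at 2.54 ± 1.83 CPM in circNrxn3 siRNA and 1.60 ± 1.59 CPM in scrambled libraries (SD, n = 4 each). The larger row had a log2 fold change of 0.91 (SE 0.79, edgeR adjusted p = 0.863), so the difference was within the spread of the libraries. Within circNrxn3 siRNA libraries, replicate 3 was lowest both in Abhd10, at 0.252 CPM, and in Tagln3. Among scrambled libraries, replicate 4 was highest in Abhd10, at 3.84 CPM, and lowest in Tagln3, at 13.7 CPM.

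**Figure D3:**
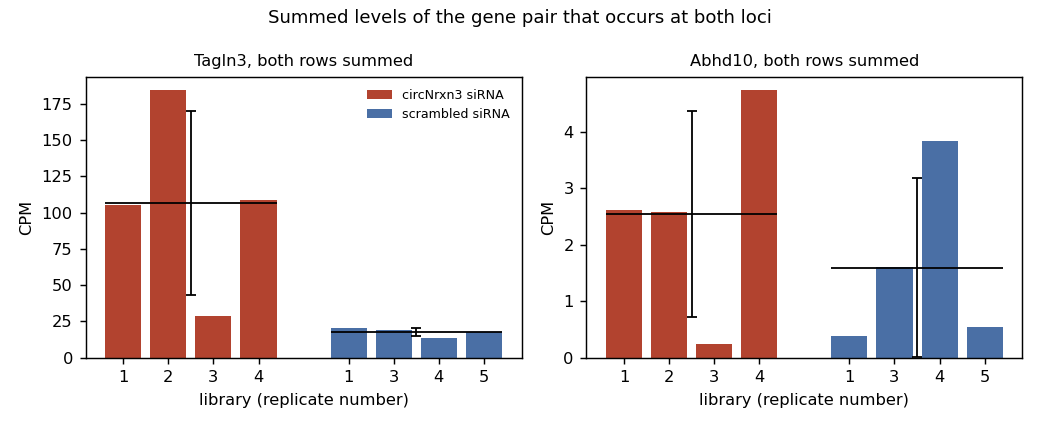
Level in CPM (vertical axes, separate scales) of Tagln3 and of Abhd10, each summed over its 2 rows, in each library (horizontal axes, replicate number), with circNrxn3 siRNA in red and scrambled siRNA in blue. Lines are group means and error bars are SD (n = 4 each); Tagln3 separates the groups, at 28.8 CPM or more against 20.5 CPM or less, while the Abhd10 values of the groups overlap.

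Other symbols that stand on several rows of the table were counted for comparison, a step chosen after the Tagln3 rows had been seen. There were 231 symbols on 2 protein-coding rows of the same chromosome, of which 104 had at least 100 counts over all libraries. In 41 of these 104 the smaller row held under 1% of the counts, as for Tagln3, and 88 had 1 entry in the GRCr8 table. The larger row reached a mean of 1 CPM in 84 symbols. Their median within-group SD of log2 CPM was 0.64, and 53.6% exceeded 0.5. Among 12826 protein-coding genes on a single row the median was 0.19, and 13.6% exceeded 0.5. Tagln3 had 0.82, rank 34 of the 84 rows, and Tagln2, on a single row, had 0.17. A wide spread between animals of a group was thus more frequent on paired than on single rows, but levels were not matched. Tagln3 was not among the widest of the 84. Near its total of 15984 counts, paired symbols had SDs of 1.69 (Fam131a), 0.0867 (Tsc22d3), 0.0865 (Zfp94) and 0.0672 (Btbd8). The spread of Tagln3 lay mostly in circNrxn3 siRNA, at 1.14 against 0.25 in scrambled libraries. This is a description without a test.

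Tagln2 (ENSRNOG00000008301, chromosome 13, 90807199 to 90814119, minus strand in rn6) has a gene model of 1297 bases. It had 821, 645, 655 and 621 counts in circNrxn3 siRNA replicates 1 to 4. In scrambled replicates 1, 3, 4 and 5 it had 700, 890, 1027 and 636 counts. After scaling these were 22.2, 21.1, 23.6 and 19.6 CPM in circNrxn3 siRNA libraries, against 25.04, 26.5, 30.6 and 21.6 CPM in scrambled libraries. The ranges overlapped, with 2 of the 4 circNrxn3 siRNA libraries below the lowest scrambled library.

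Tagln2 averaged 21.6 ± 1.70 CPM in circNrxn3 siRNA and 25.9 ± 3.73 CPM in scrambled libraries (SD, n = 4 each). Its log2 fold change was -0.27 (SE 0.12), and it did not pass (edgeR unadjusted p = 0.0433, adjusted p = 0.833). An unadjusted p under 0.05 with a lower level was found for 3.2% of all genes tested. Its SD of log2 CPM was 0.11 in circNrxn3 siRNA and 0.21 in scrambled libraries, against medians over genes of 0.19 in circNrxn3 siRNA and 0.20 in scrambled libraries. Tagln2 thus varied less than the median gene among circNrxn3 siRNA libraries and about as much as the median gene among scrambled libraries. The fitted levels of all 6 red blood cell genes were lower in circNrxn3 siRNA libraries too. Among scrambled libraries, however, replicate 4 was highest in Tagln2, at 30.6 CPM, and lowest in the red blood cell sum, at 608 CPM. Of the 7 astrocyte genes, 5 were fitted below and 2 above, with a median log2 fold change of -0.075. They summed to 1015 to 1364 CPM in circNrxn3 siRNA and 1211 to 1584 CPM in scrambled libraries. The part of blood or astrocyte RNA in the Tagln2 values was not tested.

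The order of Tagln3 and Tagln2 differed between the groups. Levels between genes are compared per length, as the authors' FPKM, which divides a gene's reads by the length of its model and by a library total. Tagln3 was at 73.7, 130, 20.3 and 77.2 FPKM in circNrxn3 siRNA replicates 1 to 4, and at 14.4, 13.8, 9.78 and 12.6 FPKM in scrambled replicates 1, 3, 4 and 5. Tagln2 was at 16.8, 16.0, 18.0 and 14.96 FPKM in circNrxn3 siRNA replicates 1 to 4, and at 19.1, 20.5, 23.6 and 16.6 FPKM in scrambled replicates 1, 3, 4 and 5. Tagln3 thus exceeded Tagln2 in each circNrxn3 siRNA library, narrowly so in replicate 3, and Tagln2 exceeded Tagln3 in each scrambled library.

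The ratio of Tagln2 to Tagln3 in FPKM was 0.228, 0.123, 0.883 and 0.194 in circNrxn3 siRNA replicates 1 to 4. In scrambled replicates 1, 3, 4 and 5 it was 1.32, 1.48, 2.41 and 1.31. The group means were 0.357 ± 0.353 in circNrxn3 siRNA and 1.63 ± 0.53 in scrambled libraries (SD, n = 4 each). By mean FPKM among the 16573 tested genes, Tagln3 ranked 1244 in circNrxn3 siRNA and 5483 in scrambled libraries. Tagln2 ranked 4611 in circNrxn3 siRNA and 4079 in scrambled libraries. The ratio mostly follows Tagln3, whose choice already fixed its direction, and it is given without a test.

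The calponin family places these levels. Tagln, the smooth muscle transgelin (ENSRNOG00000017628, chromosome 8, 50222896 to 50231357, rn6), averaged 19.3 ± 5.05 FPKM in circNrxn3 siRNA and 20.7 ± 4.17 FPKM in scrambled libraries. Cnn3, the calponin found in brain and other non-muscle tissue (ENSRNOG00000011559, chromosome 2), averaged 44.0 ± 2.79 FPKM in circNrxn3 siRNA and 49.0 ± 2.94 FPKM in scrambled libraries. Cnn2, a widely made calponin (ENSRNOG00000043044, chromosome 7), averaged 2.65 ± 0.61 FPKM in circNrxn3 siRNA and 3.57 ± 0.63 FPKM in scrambled libraries. Cnn1, the smooth muscle calponin (ENSRNOG00000027736, chromosome 8), was near the bottom, at 0.321 ± 0.142 FPKM in circNrxn3 siRNA and 0.515 ± 0.209 FPKM in scrambled libraries (SD, n = 4 each throughout).

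In circNrxn3 siRNA libraries the order of mean FPKM was Tagln3, Cnn3, Tagln, Tagln2, Cnn2 and Cnn1. There the Tagln3 libraries lay on both sides of Cnn3, whose range was 40.6 to 47.1 FPKM, and Tagln and Tagln2 overlapped. In scrambled libraries the order was Cnn3, Tagln, Tagln2, Tagln3, Cnn2 and Cnn1. There Tagln and Tagln2 overlapped, and Tagln3, with a highest value of 14.4 FPKM, lay below the lowest Tagln2 value of 16.6 FPKM. Tagln3 alone changed its place in the order, but it was chosen for its difference between these groups, and the other genes were not.

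**Figure D4:**
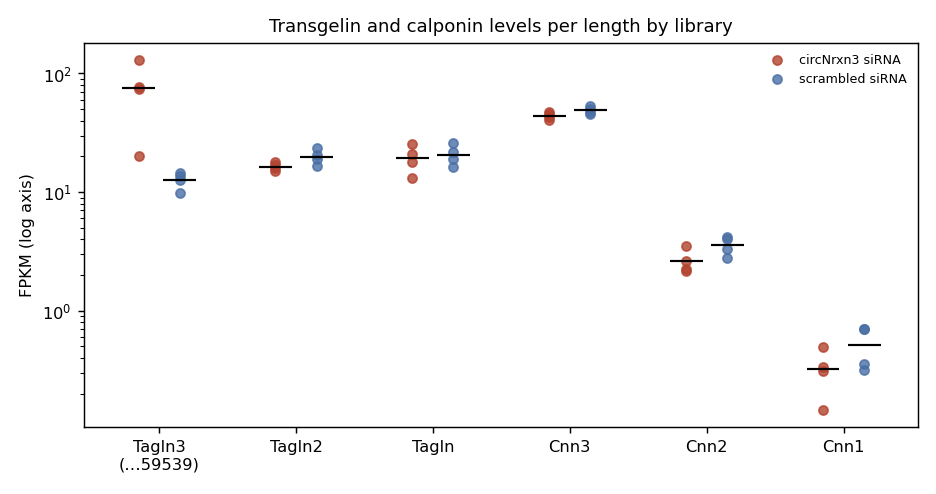
FPKM on a log axis (vertical) of the transgelin and calponin genes (horizontal), with each library as a point, circNrxn3 siRNA in red and scrambled siRNA in blue, and group means as lines; Tagln3 is the row ENSRNOG00000059539. The Tagln3 points span 20.3 to 130 FPKM in circNrxn3 siRNA libraries and 9.78 to 14.4 FPKM in scrambled libraries, while the points of the groups overlap in the other genes.

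Of the 7 rows of the family, 6 were tested and 0 passed in edgeR, as among all 16573 genes tested. Tagln3 had a fitted level above its scrambled level and the other 5 below, and the median log2 fold change was -0.20, against 0.01 over all genes tested. The values were -0.14 for Cnn3 (SE 0.07, edgeR adjusted p = 0.833), -0.42 for Cnn2 (SE 0.26, adjusted p = 0.833) and -0.67 for Cnn1 (SE 0.49, adjusted p = 0.836). Tagln had -0.09 (SE 0.20, edgeR adjusted p = 0.943), and its sign turned when scrambled replicate 3 or circNrxn3 siRNA replicate 4 was left out.

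Tagln2 is also made by vessel-associated cells, and Tagln is a marker of mural cells, the smooth muscle cells and pericytes of vessel walls, so a list of mural and smooth muscle genes was read. All 16 genes were tested and 0 passed in edgeR, as among all 16573 genes tested. Fitted levels were above for 4 and below for 12, with a median of -0.05. Over all genes tested, 8509 were above and 8064 below, with a median of 0.01. The list summed to 218 to 291 CPM in circNrxn3 siRNA and 246 to 295 CPM in scrambled libraries. The genes with the smallest p were Cspg4, a pericyte proteoglycan (-0.21), Cnn1 (-0.67), the smooth muscle actin Acta2 (-0.27) and the adhesion molecule Mcam (0.175). None had an edgeR adjusted p under 0.833. Cspg4 is also on the oligodendrocyte precursor list, so its value enters both lists. No defining marker of this list was at 0.

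Actin regulators that transgelins work beside showed no common direction. Of 71 symbols 69 were found, on 71 rows of which 70 were tested. In edgeR 0 passed, as among all 16573 genes tested, with 35 fitted above and 35 below. Their median log2 fold change was -0.00221 and their range -0.40 to 0.54, against a median of 0.01 over all genes tested. The smallest p-values belonged to Ppp1r9b, which encodes the spine scaffold spinophilin, and Marcksl1, a membrane-linked actin binder. Ppp1r9b had a log2 fold change of -0.40 (SE 0.13), and Marcksl1 had -0.34 (SE 0.12). Next were Cap2, an actin-monomer binder that helps recycle actin (0.30, SE 0.12), and the actin-monomer binder Pfn1, profilin 1 (-0.20, SE 0.09). All 4 had an edgeR adjusted p of 0.833.

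The genes around the rows were examined for a change shared along the chromosome. No row of the table overlapped a Tagln3 or Tagln2 row. Of the 17 genes nearest by position that were tested, 0 passed in edgeR, as among all 16573 genes tested. Fitted levels were above for 8 and below for 9, with a median of -0.07 and a range of -0.99 to 0.91. Over all genes tested, 8509 were above and 8064 below, with a median of 0.01. Downstream of the Tagln3 row with reads, the protease gene Tmprss7 had a log2 fold change of -0.15 (SE 0.25, edgeR adjusted p = 0.923). Beyond it, LOC683549 had -0.07 and Cd200, a neuronal surface protein that restrains microglia, had 0.14. Upstream of Abhd10, the long noncoding RNA AC108574.2 had -0.16 (SE 0.70), and Lsamp, an adhesion protein of the limbic system, had -0.07. Lsamp lay 962164 bases from this Tagln3 row.

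Around the near-empty Tagln3 row, the log2 fold changes were 0.27 for Phldb2, 0.29 for Plcxd2, -0.12 for Dzip3, -0.26 for Pvrl3, a nectin adhesion protein, and -0.10 for Gap43, the growth cone protein. Some of these nearest tested genes were far off, with Gap43 at 1105264 bases and Dzip3 at 3032557 bases from the row. Around Tagln2, Igsf9, whose row begins 1442 bases past the end of Tagln2, had 0.23 (SE 0.24). The potassium channel genes Kcnj10 and Kcnj9 had 0.28 and 0.17, a gene model without a symbol had 0.20, Slamf9 had -0.99 and Ccdc19 had -0.81. Each of these neighbours had overlapping groups and an edgeR adjusted p of 0.833 or more.

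Over the 8 libraries, the genes most like Tagln3 in log2 CPM, among 13445 candidates with a symbol and a mean of at least 1 CPM, were Patl1, an mRNA decay factor (Pearson r = 0.972), and Sh3gl2, endophilin A1 of the synaptic vesicle cycle (0.962). They were followed by L3mbtl2, Gpr155 and Eif1a (0.96 each). The order was the same for the summed Tagln3 rows. With group means removed, r was 0.915 for Patl1, 0.942 for Sh3gl2, 0.874 for L3mbtl2, 0.847 for Gpr155 and 0.85 for Eif1a. The genes were picked over these same libraries, so high values were partly built in. The SD of Tagln3 in log2 CPM was 1.14 in circNrxn3 siRNA and 0.25 in scrambled libraries. The r values with group means removed therefore rest mostly on the circNrxn3 siRNA libraries. The r values over all 8 libraries also hold the group difference for which Tagln3 was chosen. The fold changes of these genes were far smaller, with log2 values of 0.12 for Patl1, 0.61 for Sh3gl2, 0.14 for L3mbtl2, 0.28 for Gpr155 and 0.47 for Eif1a. None passed in edgeR (adjusted p of 0.833 or 0.834).

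The genes most like Tagln2 were Mt1, a metallothionein (r = 0.96), Pigu (0.948), Sh3bgr (0.943), Psmg1 (0.94) and Fabp7, the fatty-acid binding protein of astroglia (0.939). With group means removed, r was 0.927 for Mt1, 0.912 for Pigu and Sh3bgr, 0.891 for Psmg1 and 0.895 for Fabp7. Their log2 fold changes ran from -0.42 for Fabp7 to -0.09 for Pigu, with edgeR adjusted p-values of 0.833 to 0.851. The symbol Mt1 also stands on 2 rows of the table. These correlations describe 8 libraries that share scaling and depth, and the genes were picked as the highest of many.

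The size of the Tagln3 difference depended on which libraries entered, as the plot of fold changes by setting shows. Leaving out each library in turn gave log2 fold changes of 2.19 to 2.89, with the lowest value without circNrxn3 siRNA replicate 2 and the highest without circNrxn3 siRNA replicate 3. For Tagln2 the same fits gave -0.35 to -0.18.

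**Figure D5:**
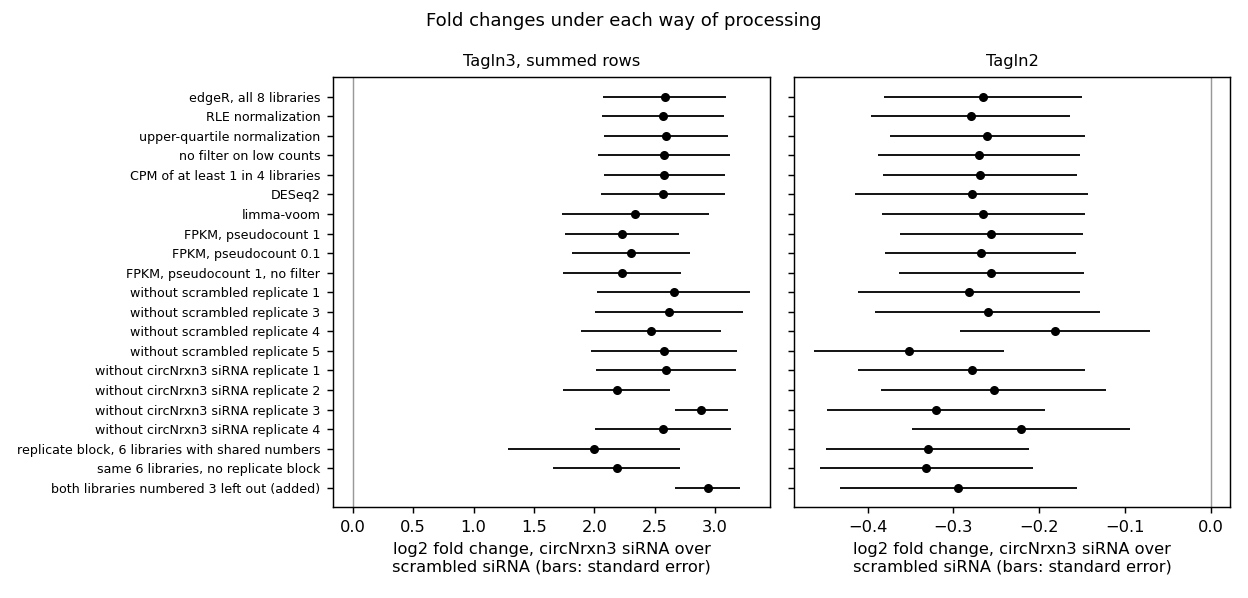
Log2 fold change of circNrxn3 siRNA over scrambled siRNA (horizontal axes, separate scales; bars are standard errors) for the summed Tagln3 rows and for Tagln2 under each way of processing (vertical axis). Tagln3 stays between 2.0 and 2.94 and Tagln2 between -0.35 and -0.18.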

How the data were processed

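Poly-T selected, strand-marked (dUTP) libraries of 8 animals were sequenced, per the labels' protocols. The authors deposited a table of whole-number read counts per gene without normalization and a table of FPKM for the same genes. The build was rn6, and featureCounts 1.5.0-p3, StringTie 1.3.3b, HISAT2 2.0.5 and fastp were among the tools, per the submitters' processing notes. Their settings, such as strand and the handling of reads with several matches, are not given in the sources used here. Counts divided by FPKM and gene length gave the same total for 100% of genes in a library (within 0.1%), and that total was 0.952 to 1.07 times the count total, so the deposited FPKM were already scaled between samples.

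The counts were fitted with edgeR 4.0.16 in R 4.3.3: filterByExpr with a minimum count of 10, TMM factors, robust quasi-likelihood F tests without covariates, 2-sided p-values and Benjamini-Hochberg adjustment with a threshold of 0.05. Fold changes set circNrxn3 siRNA over scrambled libraries, standard errors are the log2 fold change over the square root of F, and log2 CPM used a prior count of 2. The summed Tagln3 rows were fitted in a table where they replaced the separate rows. No fold was given where both groups were at or under 3 counts in every library. The procedure was tested on simulated data. Library pairs of a group differed by more than sampling noise (chi-square over its degrees of freedom, 23.2 to 47.4). The labels call the libraries biological replicates, and each was taken as 1 animal. Shared replicate numbers were not taken as pairs, as given with the alternatives.

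Genes named were every Tagln3 and Tagln2 row, the calponin family, the 3 nearest tested genes on either side of each row, the 5 genes most correlated with each and the 4 genes with the smallest p of each list described. Members, lists and tests were chosen with earlier results of these data known. Alternatives were RLE and upper-quartile scaling, other filters, DESeq2 1.42.0 on unfiltered counts, limma 3.58.1 (voom, and a trend on log2(FPKM + 1) or log2(FPKM + 0.1)), leaving out each library, and a replicate block. Sequences were credited to RefSeq (GRCr8) by symbol, or copied from the labels for the siRNA; no genome of the build rn6 was used here.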

Additional observations from a re-analysis of the deposited data

Results flagged for a closer look

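Single libraries stood apart from their group in 3 of the 54 sets of 4 libraries checked, by the 95% critical value of Dixon's ratio, the gap to the nearest library over the group's range. Chance sets apart about 1 in 20 such sets. The Tagln2 to Tagln3 count ratio was 0.818 in circNrxn3 siRNA replicate 3, against 0.114 to 0.211 in the other circNrxn3 siRNA libraries. The same ratio was 2.23 in scrambled replicate 4, against 1.22 to 1.38 in the other scrambled libraries. Both libraries are the lowest of their group in Tagln3. The Abhd10 row beside the near-empty Tagln3 row (ENSRNOG00000043107) was at 1.13 CPM in scrambled replicate 4, against 0 to 0.0298 CPM in the other scrambled libraries. No cause was tested.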

How the results depend on the processing

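The fold changes of Tagln3, of its summed rows and of Tagln2 kept their sign under all 20 alternatives. Tagln3 ran from 2.001 to 2.94 (adjusted p 0.00167 in DESeq2 to 1.0), and Tagln2 from -0.35 to -0.18 (adjusted p 0.403 to 1.0). The number of genes called was 11 with DESeq2, 0 to 1 when each library was left out (1 without circNrxn3 siRNA replicate 2 and 1 without circNrxn3 siRNA replicate 3) and 0 otherwise. In the calponin family 1 gene, Tagln3, was called with DESeq2, and 0 to 1 when each library was left out (1 without circNrxn3 siRNA replicate 3, adjusted p = 0.0148 in edgeR). With both libraries numbered 3 left out, an alternative chosen after seeing the data, Tagln3 had 2.94 (edgeR adjusted p = 0.326). The cause was not tested.

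The replicate numbers 1, 3 and 4 occur in both groups. Deviations from the group means of same-numbered libraries correlated at 0.369, 0.299 and 0.087. Differently numbered libraries were not compared in this way, so these values cannot decide whether the numbers mark pairs. The labels state no pairing, so the numbers were not taken as pairs. With the replicate block over these 6 libraries, Tagln3 had 2.001 (SE 0.71, edgeR adjusted p = 0.583) and Tagln2 -0.33 (adjusted p = 0.403). Without the block the same 6 libraries gave 2.19 for Tagln3. No gene was called with the block.

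Log2 fold changes of Tagln and of several neighbours turned sign in some fits, with no call in either case and the cause not tested. Leaving out each library gave -0.25 to 0.056 for Tagln (0.027 without scrambled replicate 3), -0.31 to 0.091 for Dzip3 (0.041 without circNrxn3 siRNA replicate 3), -0.28 to 0.058 for Tmprss7 and -0.48 to 0.022 for Pvrl3. It gave -0.24 to 1.23 for Kcnj10 (-0.092 and -0.028 without scrambled replicates 3 and 4), -2.22 to 0.23 for Slamf9, -0.23 to 0.17 for LOC683549 (0.016 without scrambled replicate 5) and -0.56 to 0.21 for AC108574.2 (0.064 without circNrxn3 siRNA replicate 4). With the block, Slamf9 was at 0.13, Phldb2 at -0.053, Lsamp at 0.015 and AC108574.2 at 0.29. Over the same 6 libraries without it, Kcnj10 was at -0.16, Phldb2 at -0.057, Lsamp at 0.014 and AC108574.2 at 0.069. AC108574.2 was at 0.38 with limma-voom. Depth limits the near-empty Tagln3 row, where 3 counts are 0.0852 to 0.109 CPM.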
